A study of Homo sapiens with 2 samples.

Results

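MALAT1 is a long noncoding RNA of chromosome 11, and TALAM1 is the transcript annotated antisense to it. The positions described here are all entries of a deposited list of deletion sites that fall inside either RefSeq gene body on GRCh38. There were 17 such sites among the 2960 of the list. All 17 lay in MALAT1 and on the plus strand, which is the strand of MALAT1, and 0 lay on the minus strand. The list came from crosslinking and immunoprecipitation (CLIP) with an antibody to the splicing factor SF3A1. The sites were chosen by gene body from results already known, so their number and place are a description and carry no test.

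The cells were C4-2B, a prostate cancer epithelial line of the LNCaP lineage, in a derivative prepared for CRISPR interference. Both libraries came from the same group, in which cells were frozen after ultraviolet crosslinking at 254 nm with 400 mJ/cm2, harvested 48 h after plating, and precipitated with 2 µg of an antibody to SF3A1. No treated, knockdown or control group was used here, and the deposited list pools both libraries, so no value below has a spread between replicates. For each site the list gives a pair of counts, named k and m. They were read, from the usual naming in such lists and not from a stated definition, as the tags (sequenced RNA fragments) over the position and the tags that lack that base. In every entry m equals the deposited score and does not exceed k. The ratio of m to k is called the deleted share below, and every share rests on this reading.

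SF3A1 is a subunit of the U2 small nuclear ribonucleoprotein, which recognises the branch point of introns during splicing. MALAT1 RNA stays in the nucleus and gathers in nuclear speckles, bodies rich in splicing factors, and it is abundant in many cancer cells. Its end is not formed by ordinary polyadenylation: RNase P cuts the transcript and releases the tRNA-like MASCRNA, and a helical structure at the new end protects the long RNA. TALAM1 is read from the opposite strand across the same locus and has been described as promoting the stability and end formation of MALAT1. In CLIP, reverse transcriptase can skip a base that is linked to protein, so that a deletion can mark a point of contact. No control library was used here, so which listed deletions mark a contact was not tested. The deleted share is not read as strength of contact.

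MALAT1 (gene ID 378938, lncRNA) occupies chr11:65497738-65506516, 8779 nt. TALAM1 (gene ID 109136579, antisense RNA) occupies chr11:65499312-65507432, 8121 nt. The bodies share 7205 nt, or 82.1% of MALAT1, and TALAM1 reaches 916 nt beyond the MALAT1 end. MASCRNA (scRNA) is annotated inside MALAT1 at chr11:65506117-65506174, 58 nt. Exon structure was not used here.

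RefSeq gives MALAT1 a pair of start sites, at 65497738 and at 65499045, which are 1307 nt apart. Their windows are shown because no site lay between the starts: all 17 lay downstream of the second. Each window runs from 250 bases before the start to 50 bases from it, on the plus strand of GRCh38.p14. Capitals mark the 50 bases from the start named. The lower-case bases of the second window lie inside the MALAT1 body, downstream of the first start.

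First start, chr11:65497488-65497787: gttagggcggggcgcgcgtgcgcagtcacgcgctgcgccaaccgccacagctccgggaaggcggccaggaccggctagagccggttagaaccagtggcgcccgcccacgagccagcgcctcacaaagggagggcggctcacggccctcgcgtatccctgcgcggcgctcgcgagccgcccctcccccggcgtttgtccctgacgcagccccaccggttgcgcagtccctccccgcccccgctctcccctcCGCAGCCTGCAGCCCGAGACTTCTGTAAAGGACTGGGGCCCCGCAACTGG

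Second start, chr11:65498795-65499094: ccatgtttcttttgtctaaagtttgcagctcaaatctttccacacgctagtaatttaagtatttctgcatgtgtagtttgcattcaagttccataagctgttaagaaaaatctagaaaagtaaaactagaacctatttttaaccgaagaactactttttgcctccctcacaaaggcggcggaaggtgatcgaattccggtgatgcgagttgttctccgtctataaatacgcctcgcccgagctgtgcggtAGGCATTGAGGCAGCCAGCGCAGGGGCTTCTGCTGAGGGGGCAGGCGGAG

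The windows differ in composition. The first had 73.7% G and C and 37 CG pairs, and the second 46.0% and 14, against a median G and C content of 58.7% over 35116 RefSeq promoter windows of this length. The motif TATAAA was searched on both strands. It occurred in the window of the second start, on the plus strand, with its first base 30 bases before the start, and not in that of the first; 11.5% of all windows held it on either strand. This is a description of letters only. Neither window held a listed site, and the site nearest to the second start lay at its base 72. TALAM1 and NEAT1 had no window in the table.

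Sites began close behind the second start and ran almost to MASCRNA. The first was at 65499116 and the last at 65506023, a span of 6907 nt, and the last lay 94 nt before the first base of MASCRNA. MASCRNA itself held 0 sites, and the 916 nt of TALAM1 beyond the end of MALAT1 held 0. From the second start to the annotated end, 17 sites in 7472 nt came to 2.28 per kb.

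The spacing along the RNA was uneven. The 16 distances between neighbouring sites ran from 6 to 1322 nt, with a median of 278.5, and 8 of them were 250 nt or less. When the gene body was divided into 10 equal parts, part 1 held 0 sites, parts 2 to 5 held 1 each, parts 6, 7, 8 and 10 held 3 each, and part 9 held 1. Thus 7 of 17 sites lay in the last 3 of the 10 parts, nearest the processed end of the RNA. Parts 6 to 8, with 3 sites each, held more, and part 8 is in both sets. The parts divide the annotated body, which runs 342 nt beyond MASCRNA, so part 10 includes bases past the processed end. The counts therefore do not show whether sites were densest next to that end. Positions below are counted from the first start, whose base is number 1.

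**Figure D1:**
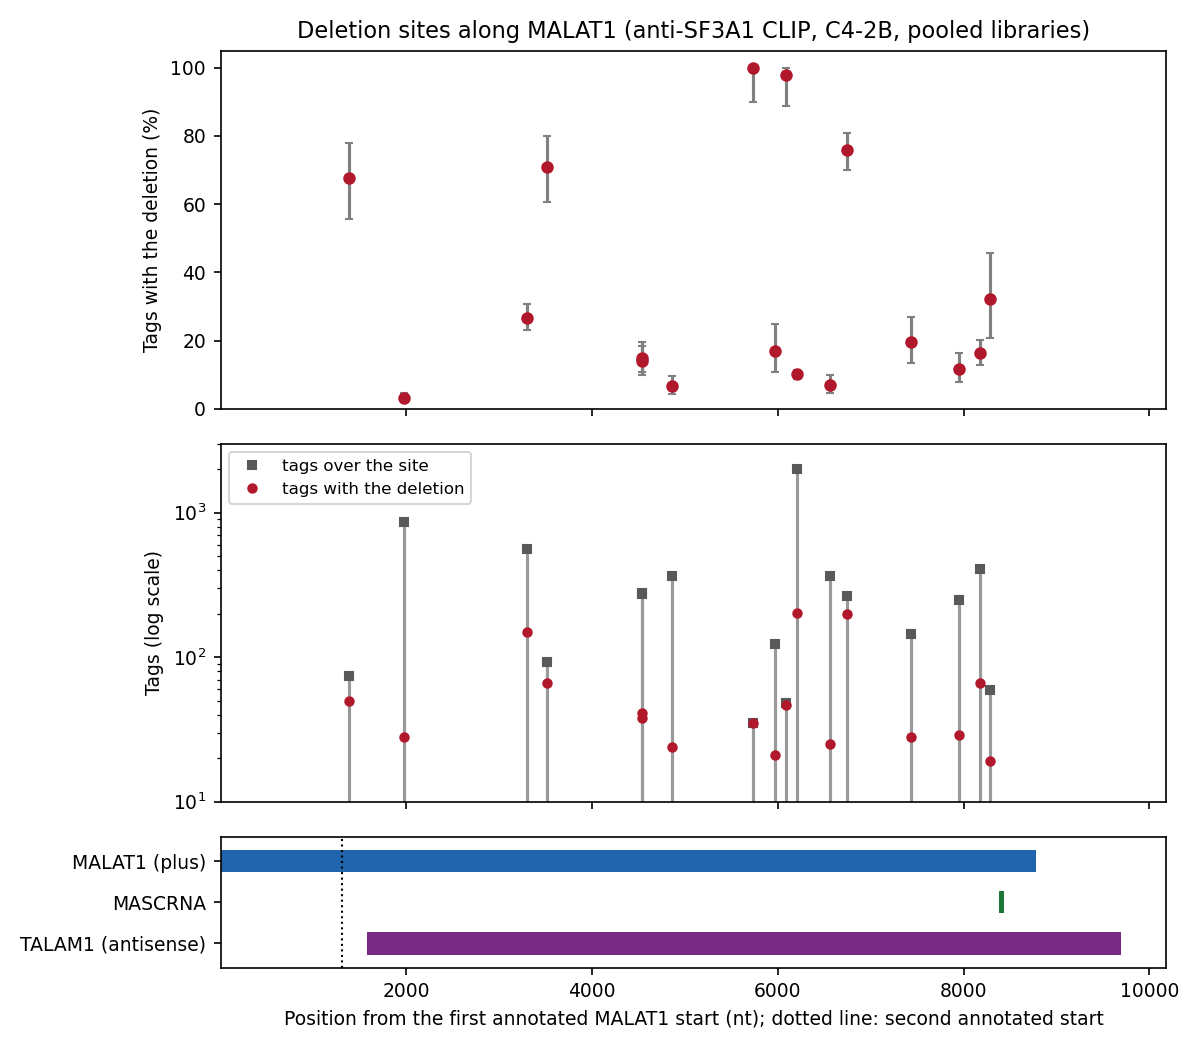
Deleted share with 95% Clopper-Pearson interval (top), tags over each site and tags with the deletion on a log scale (middle), and the annotated bodies (bottom), against position from the first MALAT1 start in nt. The 17 sites begin behind the dotted second start and end before MASCRNA; the tallest is the site with 2011 tags.

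In the 5′ part of the RNA, sites of low and high deleted share stood next to each other. The first site, base 1379 (65499116), is the only one outside the TALAM1 body, and 50 of its 74 tags carried the deletion, or 67.6% (95% Clopper-Pearson interval 55.7 to 78.0). At base 1976 (65499713) only 28 of 861 tags did, or 3.25% (2.17 to 4.67). This was the lowest share of the 17 sites and the third lowest of the whole list, at the 21st highest coverage. Base 3298 (65501035) had 149 deleted of 557 tags, or 26.8% (23.1 to 30.6). Base 3515 (65501252), 217 nt further on, had 66 of 93, or 71.0% (60.6 to 79.9). Coverage therefore varied from 74 to 861 tags over these 4 sites, and the better covered pair had the lower shares.

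In the centre of the RNA, a pair of sites lay 6 nt apart. Base 4535 (65502272) had 38 deleted of 274 tags, or 13.9% (10.0 to 18.5), and base 4541 (65502278) had 41 of 276, or 14.9% (10.9 to 19.6). Their intervals overlapped almost wholly; at this distance most tags over one site may also cover the other, so the pair are not independent measurements. Base 4864 (65502601) had 24 of 363 tags, or 6.61% (4.28 to 9.68).

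The next stretch held both the most complete sites and the best covered one. At base 5736 (65503473) all 35 tags carried the deletion (100%, interval 90 to 100). At base 6084 (65503821) 47 of 48 tags did, or 97.9% (88.9 to 99.9). Between them, base 5965 (65503702) had 21 of 124 tags, or 16.9% (10.8 to 24.7), so shares near complete and low alternated within 348 nt. Base 6210 (65503947), 126 nt after the site with 48 tags, had 2011 tags, 41.9 times as many. Of these 202 carried the deletion, or 10.0% (8.77 to 11.4). It ranked 4th of the 2960 sites by coverage and supplied 32.4% of all tags and 18.9% of all deleted tags counted over MALAT1 sites.

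Toward the 3′ end, shares were low at all sites but 1. Base 6565 (65504302) had 25 deleted of 365 tags, or 6.85% (4.48 to 9.95). Base 6742 (65504479), 177 nt further on, had 200 of 264 tags, or 75.8% (70.1 to 80.8). It was the only MALAT1 site with 100 or more tags in which most tags carried the deletion, and its deleted count was within 2 tags of that of the best covered site. Base 7431 (65505168) had 28 of 144 tags, or 19.4% (13.3 to 26.9), and base 7946 (65505683) had 29 of 249, or 11.6% (7.94 to 16.3). The last pair, before MASCRNA, were base 8180 (65505917) with 66 of 407 tags, or 16.2% (12.8 to 20.2), and base 8286 (65506023) with 19 of 59, or 32.2% (20.6 to 45.6). The last site had the fewest deleted tags of the 17; no site in the whole list had fewer than 13.

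By deleted share the sites fell in 3 bands. Ordered from lowest to highest, neighbours had overlapping intervals at 14 of 16 steps. The intervals were separate between 32.2% and 67.6% and between 75.8% and 97.9%. The low band held 12 sites, the middle band 3 (bases 1379, 3515 and 6742) and the high band 2 (bases 5736 and 6084). Within the low band the ends were apart, since the interval at base 1976, up to 4.67%, ended below that at base 6210, from 8.77%. The intervals cover counting error only and treat tags as independent molecules. The bands do not follow position, as middle and low sites alternate along the RNA.

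**Figure D2:**
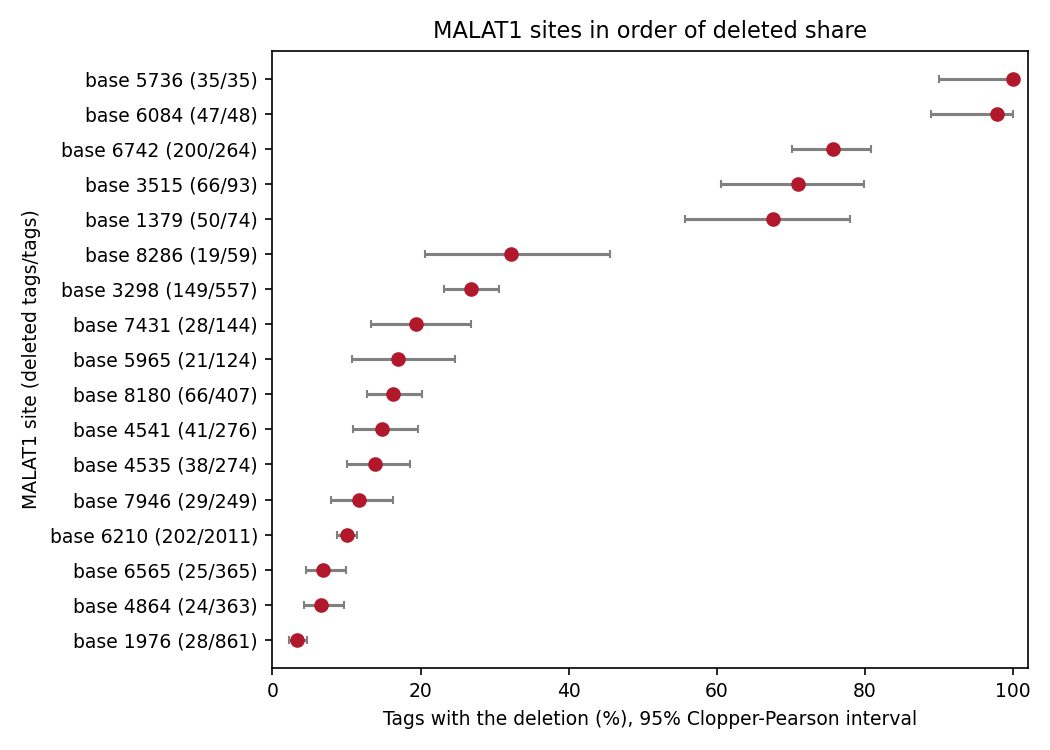
The 17 MALAT1 sites in order of deleted share (x axis, percent, with 95% Clopper-Pearson intervals); labels give the base from the first start with deleted tags over all tags. 12 sites lie between 3.25 and 32.2%, 3 between 67.6 and 75.8%, and 2 at 97.9 and 100%.

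Better covered sites had lower shares. Across the 17 sites, coverage and deleted share had a Spearman rho of -0.76 (Pearson r of -0.72 with log10 coverage). Over all 2960 listed sites the rho was also negative, at -0.29, so the direction is not particular to MALAT1. The sites come from 1 pool of tags and neighbouring ones share tags, so these values are a description without a p. The 12 sites with 100 or more tags had a median share of 14.4%, and the 5 with fewer had 71.0%. Every listed site had at least 13 deleted tags, so no low share was listed at low coverage. This is the smallest count seen, and the cut-off of the authors' filter is not known. If 13 were the limit at every coverage, the lowest share would be 0.646% at the best covered MALAT1 site. At the least covered one, which had 35 tags, it would be 37.1%. The part of this limit in the relation was not tested.

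Summed over sites, MALAT1 contributed many tags and few deletions. Its 17 sites were 0.574% of the list and held 6204 of 246057 tags, or 2.52% (2.46 to 2.58), a sum in which a tag over neighbouring sites can count more than once. They held 1068 of 213787 deleted tags, or 0.50%, and 5136 of 32270 tags without the deletion, or 15.9%. The deleted share of the summed tags was 17.2% (16.3 to 18.2) in MALAT1 and 88.7% (88.6 to 88.8) over the 2943 other sites. The intervals in this paragraph treat tags as independent and leave out the spread between sites, so they are too narrow for comparing groups. Shares of single MALAT1 sites ran from 3.25 to 100%. The largest deleted counts, at bases 6210, 6742 and 3298, came to 551 of the 1068 over these 3 sites, or 51.6%. Without the best covered site, MALAT1 held 1.72% of the tags and the share of its summed tags was 20.7%.

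Read against the list, the MALAT1 shares were at the low end. The median was 16.9% over the 17 sites (lowest 3.25%, highest 100%) and 100% over all 2960. A share under 90% was found at 15 of 17 MALAT1 sites, where the background over all listed sites was 7.5%. A share under 40% was found at 12 of 17, with a background of 2.67%. MALAT1 gave 4 of the 20 lowest shares in the list and 10 of the 50 lowest. Complete deletion, present at 2243 of 2960 sites, was found at 1 MALAT1 site. Sites of 1 RNA in 1 pool are not replicates, so no p is given.

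The difference in share was also seen among well covered sites. Outside MALAT1, 2015 sites had a coverage between 35 and 2011 tags, the range of the MALAT1 sites; their median share was 100% and 177 of them (8.78%) were under 90%. These sites were less covered within that range, with a median of 77 tags against 264 in MALAT1. Among sites with 200 or more tags, all 10 of MALAT1 and 41 of 137 others (29.9%) had a share under 90%. The medians were 12.8% and 99.6%, at median coverages of 364 and 261 tags. Limiting the others to nuclear sites left 34 of 128 (26.6%) under 90%. RNA abundance was not measured here, so its part in coverage and in the share was not tested.

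**Figure D3:**
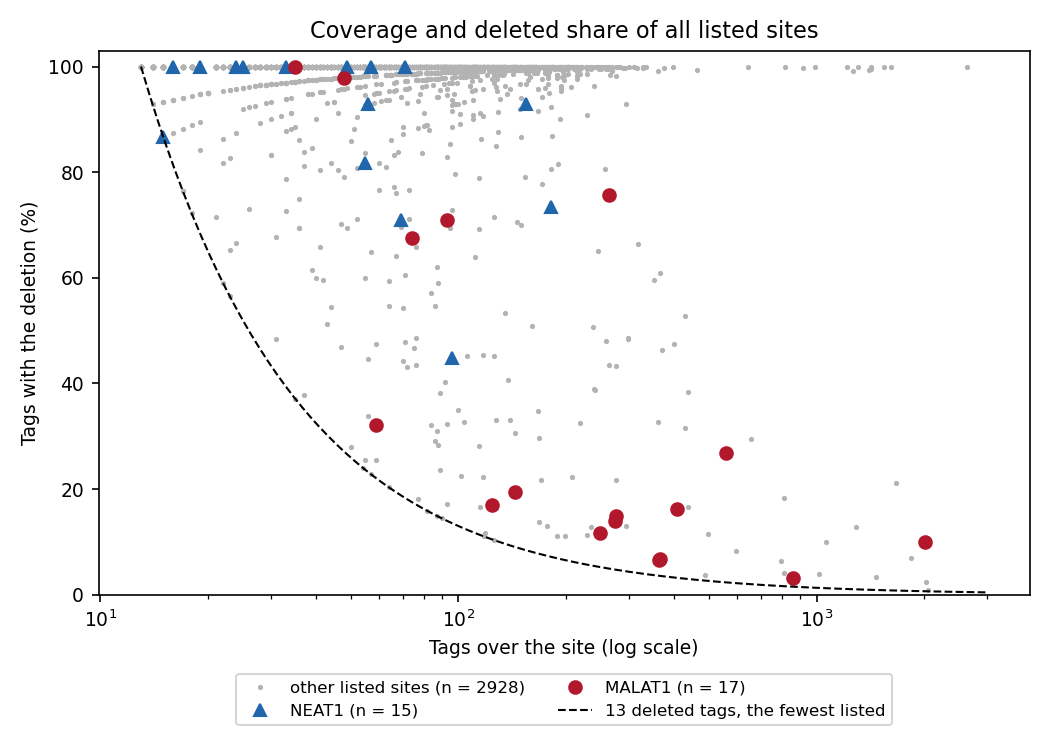
Tags over the site (log scale) against deleted share in percent for all 2960 listed sites; the dashed line marks 13 deleted tags, the fewest listed. MALAT1 sites lie mostly at the lower right, with 12 of 17 under 40%, while most other sites lie at or near 100%.

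NEAT1, the RNA that builds paraspeckles, is the nearest neighbour with sites and is likewise a nuclear noncoding RNA. It lies at chr11:65422798-65445540, and its end is 52198 nt before the first MALAT1 start. Its 15 sites, also all on the plus strand, had a median share of 100% (lowest 44.8%) and coverages of 15 to 181 tags. NEAT1 had 0 sites with 200 or more tags, where MALAT1 had 10, so shares could not be set side by side at high coverage. At 100 or more tags NEAT1 had 2 sites, with 73.5% and 92.9% deleted, and 11 of the 12 MALAT1 sites at that coverage were under 40%. Site density was 1.94 per kb over the MALAT1 body and 0.660 per kb over the NEAT1 body. NEAT1 sites were unevenly spread: they lay close together from 65422878 to 65426042, near its start, and far apart beyond. The whole-body density therefore does not describe that first stretch, where NEAT1 sites were denser than its average. The density of that stretch was not computed, so MALAT1 is not shown to hold denser sites than it.

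**Figure D4:**
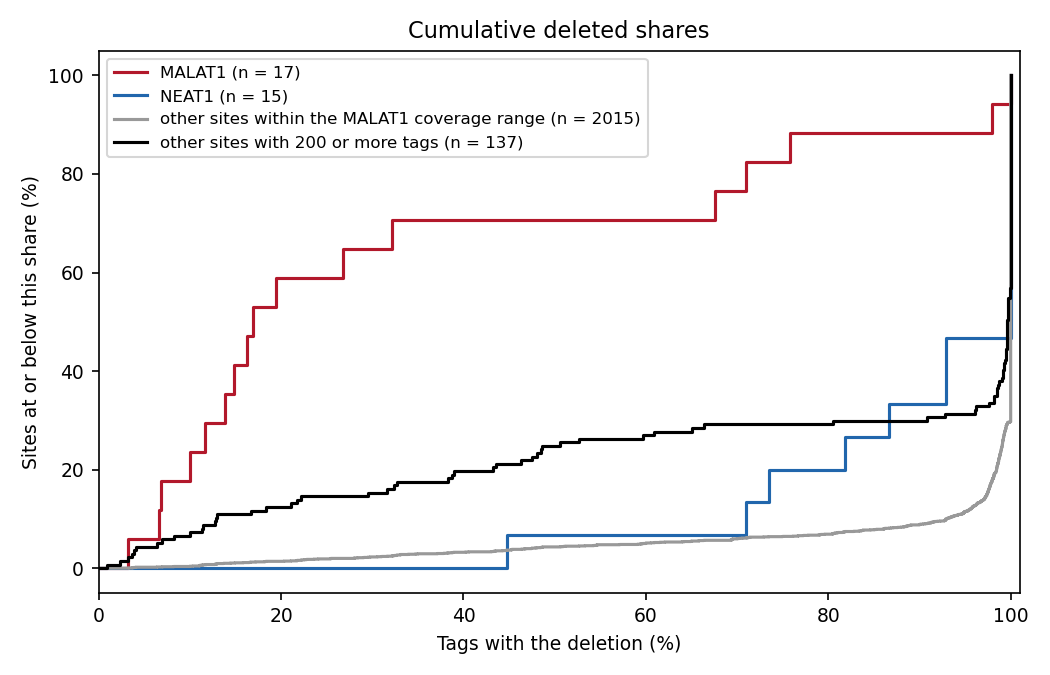
Percent of sites at or below each deleted share (x axis, percent) for MALAT1, NEAT1, other sites within the MALAT1 coverage range and other sites with 200 or more tags. The MALAT1 curve passes the middle at 16.9%, whereas the median of the other well covered sites is 99.6%.

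The index number in each site's name also differed between these RNAs. Indices rose with position along the plus strand of chromosome 11. From the first to the last site they ran from 152 to 198 in MALAT1, 47 values of which 17 (36.2%) were listed. In NEAT1 they ran from 127 to 149, 23 values of which 15 (65.2%) were listed. What the index counts was not stated in the labels or the list; if it numbers candidate deletion positions, a smaller part of them passed the authors' filter in MALAT1 than in NEAT1.

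For TALAM1 the list gave no site that its strand would assign to it. Its body contained 16 of the 17 sites, all on the plus strand. With 0 of 17 sites on the minus strand, the upper limit of their share was 17.6% by the 3 counts that a count of 0 allows. By the Clopper-Pearson interval it was 19.5%. Both limits treat sites of 1 gene in 1 pool as independent draws, and 1 of the 17 lies outside the TALAM1 body. They therefore set no limit on binding of TALAM1. The site strand follows the gene strand in this list: of 2024 sites inside a single gene of known strand, 1946 (96.1%, 95.2 to 96.9) lay on that gene's strand. Nor was there a minus-strand site nearby, the closest being 1381513 nt before MALAT1 and 778066 nt beyond TALAM1. The closest sites of any strand were the last NEAT1 site, 53072 nt before MALAT1, and a plus-strand site 127087 nt beyond TALAM1. Of 19 genes with the biotype label antisense RNA, 1 (5.26%), TALAM1, had a site in its body on either strand. This is near the 3.89% of all 58991 gene bodies, and the TALAM1 sites were those on the MALAT1 strand. The percent therefore does not describe sites on antisense transcripts. OIP5-AS1, which is not among the 19, had 1 site, on its own strand. The list holds positions past the authors' filter only, so coverage of TALAM1 RNA below it is unknown.

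Genes related to MALAT1 by RNA type, protein or location were next examined for sites of their own. Where the RNAs of these genes lie in the cell was not measured. A gene was counted when a site on either strand lay in its body, which was so for 3.89% of 58991 genes of the RefSeq table, 10.2% of protein-coding genes and 1.19% of long noncoding ones. A site with a share under 90% was held by 0.324% of all genes. Of a list of 14 regulatory long noncoding RNAs, most of them nuclear and some also found in the cytoplasm, 6 had a site: MALAT1, NEAT1, PVT1 with 9, GAS5 with 2, and KCNQ1OT1 and OIP5-AS1 with 1 each. MALAT1, the gene described here, is itself on this list, so its place among the 6 was fixed in advance. GAS5, a snoRNA host, had shares of 33.1% and 80.7%, whereas the KCNQ1OT1 and OIP5-AS1 sites were complete.

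Of 30 genes for nuclear speckle proteins, the bodies in which MALAT1 gathers, 17 had a site. They include SRRM2, a scaffold of speckles, with 5 sites of 98.8% or more, and SON, the other scaffold, with 2 sites of 96.2% and 100%. A site under 90% was present in 4 of the 17, and in 191 of the 2295 genes of the whole table that had any site (8.32%). The 4 were SRSF2, a serine and arginine rich splicing factor, CLK1, a kinase of such factors, the U2 protein gene SF3B1 and the cyclin gene CCNL2. SF3B1 had 22 of 47 tags deleted, or 46.8%. Of 21 genes for proteins that bind or process MALAT1 RNA, 4 had a site: HNRNPU with 5, HNRNPC with 2, and ELAVL1 and NONO with 1 each. No site lay in METTL16, whose protein binds the protected end of MALAT1, or in ELAC2, the enzyme that trims the MASCRNA end. Of 18 neighbours on 11q13, 2 had a site, NEAT1 and PCNX3. The lists were made with earlier results of these data known, and their counts are not corrected for gene length or RNA abundance.

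The genes closest to MALAT1 in deleted share were RNR2 and KLK3. Among genes with 4 or more sites, the 5 medians closest to the 16.9% of MALAT1 were those of RNR2, the large mitochondrial ribosomal RNA, with 38.9% over 8 sites, KLK3, which encodes prostate-specific antigen, with 42.8% over 4, ND4 with 83.8% over 6, ND5 with 89.9% over 4, and LOC124905135 with 97.5% over 4. Likeness was the absolute difference in median share, and MALAT1 had the lowest median. Besides MALAT1, TALAM1 and these first 2, no gene with 4 or more sites had a median under 80%. RNR2 resembled MALAT1 in coverage too, with a median of 247.5 tags, whereas the KLK3 sites had a median of 83.5.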

How the data were processed

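Deletion sites from anti-SF3A1 CLIP in C4-2B cells were taken from 1 list pooled over 2 libraries. The authors deposited, per position, a count of tags with the deletion; the position's name, another deposited text field, holds that count (m), a count k read as the tags over the position, and an index. Both counts were used as deposited, without normalization. The name of the list gives unique tags, deletions, crosslink-induced mutation site analysis and an FDR of 10 percent. Per the submitters' processing notes, cutadapt, BWA 0.7.17, SAMtools, UMI-tools and build hg38 were used; their roles and settings are not stated there. Depth per library is unknown. How duplicates were removed could change both counts.

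Sites were placed in gene bodies of the RefSeq GRCh38.p14 table (58991 of 59792 rows; rows of other scaffolds, unplaced and repeated symbols left out), with 1-based coordinates. Gene strand came from the RefSeq promoter table, which held 2 MALAT1 windows. Shares have exact Clopper-Pearson 95% intervals. No test was made. The members and gene lists were chosen with earlier results of these data known. Genes named are MALAT1, TALAM1, NEAT1, list members with a site and the 5 genes of most similar median share; METTL16 and ELAC2 were named after their values were seen. Interval and gene assignment were tested on simulated data. Python 3.11.15, numpy 2.4.6, pandas 2.3.3, scipy 1.17.1 and matplotlib 3.10.9 were used.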

Additional observations from a re-analysis of the deposited data

How the results depend on the processing

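No paired analysis was possible because the list pools both libraries and there is 1 group. Limiting MALAT1 to sites whose deleted count exceeded the median of the list left 5 sites, all 5 with a share under 90%, a median share of 26.8% and a summed share of 20.5%. The background of 7.5% under 90% holds for the whole list, and none is given for this limit. The mean share in place of the median was 34.8%. The summed share was 14.4% with at least 100 tags and 20.7% without the best covered site. MALAT1 held 2.62% of tags over nuclear sites, 0.50% of deleted tags and 1.72% of tags without its best covered site. The median distance between sites was 323 nt without that site and 355 nt with at least 100 tags. Counting only sites with a share under 90%, genes with a site numbered 4 for speckle proteins, 2 for proteins that bind or process MALAT1 and 1 for the 11q13 neighbours. Merging sites within 10 or 50 nt, keeping only sites inside both bodies and widening the body by 1000 nt kept the number of sites at 16 or 17 and the median share between 16.6 and 18.2%. No site in the list had fewer than 13 deleted tags, so no low share was listed at low coverage.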
